A study of Mus musculus with 3 samples.

Results

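The V2R receptor genes outside family C were taken as all features whose symbol starts with Vmn2r, other than the family C genes Vmn2r1 to Vmn2r7, which gave 117 genes of 32285 features. They were read in single-cell RNA sequencing (scRNA-seq) libraries made from vomeronasal organs (VNOs) of male mice on a mixed C57 BL/6J and 129P2/OlaHsd background. The P10 control, taken at postnatal day 10, was heterozygous for OMPCre, in which the Omp locus drives the Cre recombinase. The P10 mutant and the 3-month mutant were heterozygous both for OMPCre and for R26AP2e, a Rosa26 transgene of the transcription factor AP-2ε (Tfap2e), and the 3-month library is titled P90. The transgene can therefore be switched on only in cells that have made Cre, which are neurons that express Omp. Each group had 1 library, so no test between libraries was possible, and neither genotype nor age can be told apart from the library. All intervals in brackets are exact 95% intervals for counting error only and leave out the variation among cells and animals.

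V2Rs are G protein-coupled receptors with a large extracellular domain that binds peptides and proteins, such as pheromones in urine and tears. They are used by the vomeronasal sensory neurons (VSNs) of the basal epithelium, which signal through Gαo (Gnao1), whereas apical VSNs use V1Rs and Gαi2 (Gnai2). A basal VSN is known to pair a receptor from the clustered genome families with a family C receptor, which is either Vmn2r1 or members of Vmn2r2 to Vmn2r7, and many basal VSNs also express H2-Mv genes, a group of nonclassical MHC class I genes.

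Barcodes with 200 to 9000 genes, at most 10% mitochondrial UMIs (unique molecular identifiers, each a counted molecule) and at least 5 Vmn2r UMIs were called V2R barcodes. They made up 104 of 4795 kept control barcodes (2.17% [1.78, 2.62]), 61 of 3956 P10 mutant barcodes (1.54% [1.18, 1.98]) and 101 of 6960 barcodes of the 3-month mutant (1.45% [1.18, 1.76]). At the edge of the rule, 6, 6 and 10 kept barcodes held exactly 5 Vmn2r UMIs, and 8, 7 and 6 held exactly 4. The members accounted for 6960, 5228 and 8915 UMIs in the V2R barcodes, against 770, 611 and 1718 for the 7 family C genes. Depth differed between the libraries, with a median of 15934.5, 23673 and 8605 UMIs per V2R barcode and 7, 2 and 33 barcodes under 2000 UMIs. No V2R barcode sequence was shared by any pair of libraries, while 21, 26 and 30 barcodes were shared among all those in the files.

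Most V2R-dominant barcodes held the basal gene Gnao1, and part of them held apical genes too. Of the V1R and V2R UMIs of a barcode, at least 80% were V2R in 79, 46 and 87 barcodes, called V2R-dominant, while 11, 8 and 13 were V1R-dominant and 14, 7 and 1 were mixed. Among V2R-dominant barcodes, Gnao1 was found in 72 of 79, 40 of 46 and 54 of 87, and the neuronal gene Stmn2 in 78, 44 and 44. The apical gene Gnai2 was found in 44, 28 and 22 of them, Nrp2 in 48, 28 and 18 and Meis2, an apical transcription factor, in 18, 19 and 15. Gnao1 stood at 490, 342 and 446 CPM (UMIs of the gene per 1000000 UMIs of the pooled cells) and Gnai2 at 209, 722 and 388 CPM, so that in the P10 mutant Gnai2 was the higher. In the V1R-dominant V2R barcodes Gnai2 stood at 2717, 1931 and 1480 CPM. None of Omp, Gnao1, Gap43 (a gene of growing, immature neurons) or Stmn2 was found in 1, 2 and 18 V2R barcodes, and 12 of the 18 in the 3-month mutant held under 2000 UMIs. Col1a1, a fibroblast and bone gene, had a UMI in 55, 29 and 5 V2R-dominant barcodes and the gland gene Bpifa1 in 8, 0 and 38. The remaining markers of sustentacular cells, immune cells, glia, endothelium, fibroblasts and glands, 16 in all, each had a UMI in at most 12 of 79, 15 of 46 and 16 of 87. The part of free RNA or doublets in these counts was not tested.

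A receptor was called the top receptor of a cell when it held the most UMIs outside family C, and this was read only in the 88, 46 and 78 cells with at least 5 such UMIs. Of the 117 members, 74 were the top receptor of at least 1 of these 212 cells. Only 10 were top in every library: Vmn2r17, Vmn2r31, Vmn2r36, Vmn2r53, Vmn2r73, Vmn2r88, Vmn2r90, Vmn2r96, Vmn2r108 and Vmn2r122. A further 22 were top in 2 libraries and 42 in 1. Of the 43 that were never top, 21 had some UMI in a V2R barcode and 22 had none. Use was thinly spread, since 30 receptors were top in exactly 1 cell and 9 were top in 5 or more.

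**Figure D1:**
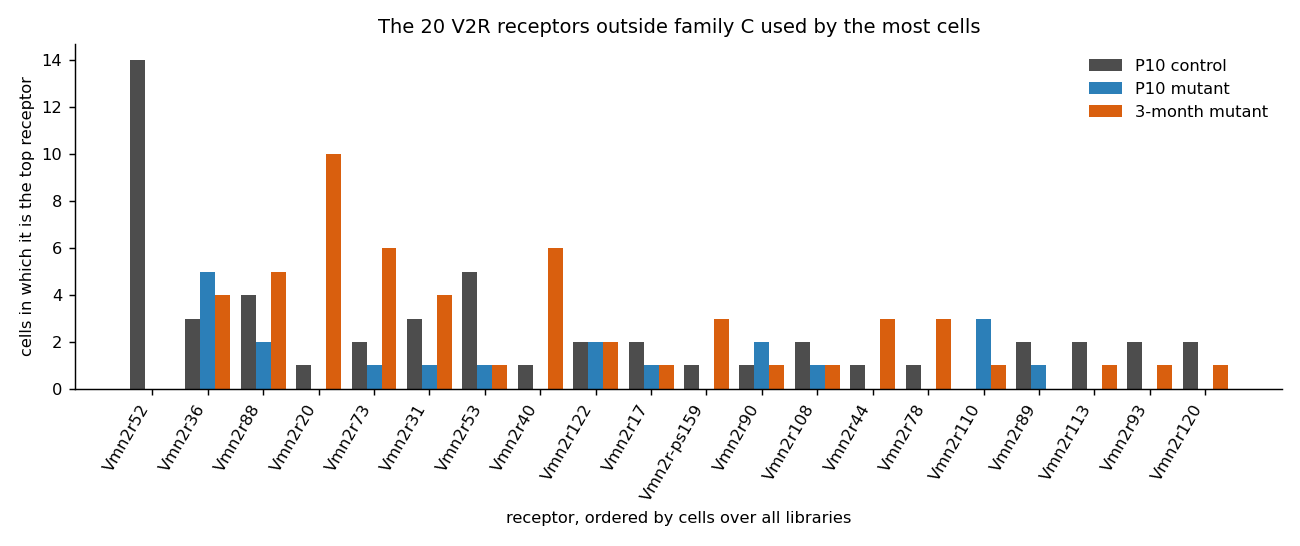
The bars give the number of cells that have each receptor as top receptor, in the P10 control, the P10 mutant and the 3-month mutant, for the 20 receptors most used over all libraries. These 20 hold 125 of 212 cells, and the long bars of Vmn2r52 and Vmn2r20 each come mainly from 1 library.

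The number of receptors used as top was 47 in the control library, 33 at P10 in the mutant and 36 at 3 months, of which 27, 24 and 20 were used by 1 cell. Draws of 46 cells from the control, the number in the P10 mutant, gave 30.7 receptors on average, and draws of 46 from the 3-month mutant gave 26.4. At equal numbers of cells the P10 mutant, with 33, was thus no longer below either of the other libraries. The control draws included the 14 cells led by Vmn2r52, and draws without those cells were not made. The 5 most used receptors held 33.0% of cells in the control, 30.4% in the P10 mutant and 39.7% at 3 months. The most used receptor was a different gene in each library: Vmn2r52 in 14 control cells (15.9% [8.98, 25.3]), Vmn2r36 in 5 P10 mutant cells (10.9% [3.63, 23.6]) and Vmn2r20 in 10 cells of the 3-month mutant (12.8% [6.32, 22.3]).

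Counts of cells and counts of UMIs ranked the receptors differently. Vmn2r89, a receptor on chromosome 14, has a short annotated coding sequence of 1521 bases, against 2541 for its nearest receptor, Vmn2r121. Their identity of 57.1% was taken over the longer sequence, so how close they are was not resolved. Vmn2r89 had the most UMIs in the control, 830 or 11.9% of the members' total, of which 293 and 533 came from 2 cells. Vmn2r88, which lies nearby at chr14:51410820-51420721 on the plus strand of GRCm38, led in the P10 mutant with 915 UMIs (17.5%) and in the 3-month mutant with 1256 (14.1%). It held 14, 50, 135 and 498 UMIs in its top control cells, 105 and 808 in P10 mutant cells, and 9, 12, 72, 418 and 745 at 3 months. The ranges of the 3 libraries overlapped.

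Among the other receptors used by several cells, levels per cell were spread as widely. Vmn2r53 (chr7:12562851-12608788, minus strand) was top in 5 control cells with 39, 56, 62, 104 and 125 UMIs, in 1 P10 mutant cell with 146 and in 1 cell of the 3-month mutant with 4. Vmn2r73 (chr7:85850673-85876266, minus strand) was top in 2 control cells with 3 and 32 UMIs, in 1 P10 mutant cell with 158 and in 6 cells of the 3-month mutant with 5, 6, 9, 21, 27 and 95. Vmn2r20 (chr6:123373513-123418116, minus strand) was top in 1 control cell with 11 UMIs and in 10 cells of the 3-month mutant with 3, 4, 7, 9, 10, 12, 15, 16, 31 and 262. The Vmn2r20 cells of the 3-month mutant were shallow: 8 of the 10 held at most 3287 UMIs in all, and the remaining 2 held 13824 and 38579. Whether they are intact neurons was not tested, and Omp was found in 7 of the 10. Leaving out cells under 2000 UMIs, the number of receptors used was 46, 31 and 33.

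The 14 control cells led by Vmn2r52 (chr7:10153206-10176573, minus strand) stood apart from all other V2R barcodes. Each held 4 to 42 Vmn2r52 UMIs, and each also held 14 to 27 UMIs, with a median of 21, of the V1R gene Vmn1r201. Over all 8202 control barcodes Vmn2r52 was at 0 in 8183, and all 17 barcodes with at least 3 Vmn2r52 UMIs had at least 3 of Vmn1r201. The reverse did not hold in full, as 5 of 23 barcodes with at least 3 Vmn1r201 UMIs had no Vmn2r52. In the P10 mutant 4 barcodes held at least 3 Vmn1r201 UMIs, all without Vmn2r52, which had 3 UMIs in the whole library, and in the 3-month mutant neither gene reached 3 UMIs in a barcode. So the largest difference in use between the P10 libraries rested on 1 receptor pair seen in 1 library.

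These cells differed in other genes as well. Gnao1 was at 90.4 CPM against 410 CPM in the remaining control V2R barcodes, and Gnai2 was at 723 against 647 CPM. Tfap2e was at 36.2 against 110 CPM, and the basal gene Robo2 had no UMI, against 122 CPM. Meis2 was at 235 against 160 CPM and Nrp2 at 109 against 120 CPM. The remaining barcodes include some that were not V2R-dominant. In the V2R-dominant control barcodes alone, Gnai2 was far lower than in the Vmn2r52 cells, as given above. Vmn2r1 had no UMI, against 126 CPM in the others, whereas Vmn2r2 had 16 UMIs in 8 of the 14 cells, 145 against 78.8 CPM. The H2-Mv genes together stood at 543 against 125 CPM, mainly H2-M10.6 (271 CPM) and H2-M10.3 (190 CPM). Omp was at 99.5 against 220 CPM and Gap43 at 461 against 861 CPM. Total UMIs were 5041 to 21870, with a median of 6104. Without these cells 46 receptors were used in the control in place of 47.

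Within a cell, the members' UMIs mostly came from 1 gene. The top receptor held a median of 100% [100, 100] of a cell's UMIs outside family C in the control library, 98.5% [87.5, 100] at P10 in the mutant and 100% [100, 100] at 3 months. It held at least 80% in 70 of 88 control cells (79.5% [69.6, 87.4]), 35 of 46 P10 mutant cells (76.1% [61.2, 87.4]) and 67 of 78 cells of the 3-month mutant (85.9% [76.2, 92.7]). Without the Vmn2r52 cells the control share was 56 of 74 (75.7% [64.3, 84.9]). Thinned to 5 UMIs per cell, the shares were 83.5%, 80% and 89.6%. The intervals of the unthinned shares overlapped between the 3 libraries. A single receptor took every UMI in 55, 18 and 52 cells, and no receptor reached 50% in 5, 5 and 1.

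**Figure D2:**
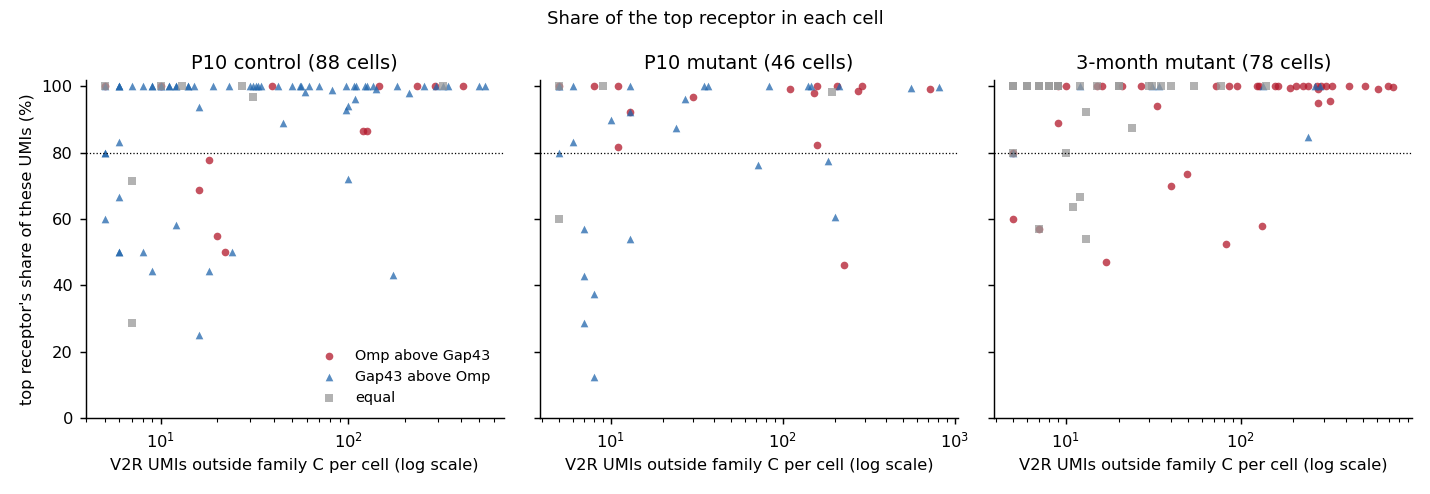
Each point is a cell with at least 5 UMIs of V2R genes outside family C, with those UMIs on a log axis and the percent held by its top receptor on the vertical axis, coloured by whether Omp or Gap43 had more UMIs. The dotted line marks 80%, reached by 70 of 88, 35 of 46 and 67 of 78 cells.

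Cells were called mature where Omp had more UMIs than Gap43 and immature where Gap43 had more. A top receptor of at least 80% was found in 9 of 13 mature and 55 of 67 immature cells of the control, in 14 of 15 mature and 18 of 27 immature cells of the P10 mutant, and in 32 of 39 mature and 8 of 8 immature cells of the 3-month mutant. Among V2R-dominant control cells, which leaves out the Vmn2r52 cells, it was found in 7 of 11 mature and 44 of 56 immature cells. Another 8, 4 and 31 cells had equal counts of both genes. The order of mature and immature cells was thus not the same in the 3 libraries.

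The receptors that appeared beside the top receptor were, in the 3-month mutant, close relatives of it. A second receptor with at least 2 UMIs was present in 24 control cells, 16 P10 mutant cells and 19 cells of the 3-month mutant. It belonged to the same sequence group as the top receptor, that is, to a set joined at 80% or more mean coding identity, in 13 of 24 (54.2% [32.8, 74.5]), 6 of 16 (37.5% [15.2, 64.6]) and 18 of 19 cells (94.7% [74.0, 99.9]). Of the 6555 pairs that the members with a coding sequence can form, 12.6% share a group. The median coding identity of the pairs was 86.5%, 72.0% and 98.5%, against 70.5% over all pairs. Identity was taken over the longer coding sequence. This holds down the values of Vmn2r89, whose annotated sequence is short and which was paired with Vmn2r88 in the P10 mutant at 56.8%. At least 97% identity was reached by 8, 2 and 17 of the pairs, and by 37 of the 6555. Of the 19 cells of the 3-month mutant, 10 held the pair Vmn2r36 and Vmn2r40 and 3 held Vmn2r20 and Vmn2r22. The values of that library thus mostly repeat the same gene pairs.

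Reads from such near-identical genes can be assigned to the wrong copy or split between copies, so use of single genes among them is uncertain. The 117 members were therefore also counted as 94 groups joined at 97% identity, of which 11 held several genes and the largest held 8. Counted in this way, which was chosen after the pairs had been seen, 1 group held at least 80% in 76 of 88 control cells (86.4% [77.4, 92.7]), 37 of 46 P10 mutant cells (80.4% [66.1, 90.6]) and all 78 cells of the 3-month mutant (100% [95.4, 100]). Of the 76 control cells, 14 were the Vmn2r52 cells. Cells below 80% thus remained in the P10 libraries alone, 12 and 9 of them. Of these 8 and 7 were immature, as were 67 of all 88 control cells and 27 of all 46 P10 mutant cells.

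Some of the P10 cells held unlike receptors at high counts. In the P10 mutant, 1 immature cell (82 Gap43 and 0 Omp UMIs) held 122 UMIs of Vmn2r10 and 53 of Vmn2r31, which share 72.0% coding identity. A deep barcode of 78612 UMIs held 105 of Vmn2r88 and 61 of Vmn2r31, and also 369 UMIs of V1R genes. A shallow barcode of 2443 UMIs held 7 of Vmn2r58 and 6 of Vmn2r35. In the control, 1 cell held 72 UMIs of Vmn2r122 and 25 of Vmn2r-ps159 and was among the barcodes with the highest doublet scores. Another held 8 of Vmn2r82 and 7 of Vmn2r70, and 1 held 16 UMIs over 9 receptors, with 4 at most for any of them. Doublets and cells with several receptors cannot be told apart in single barcodes.

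Vmn2r36 and Vmn2r40 were the pair found together most often. They lie on the minus strand of chromosome 7, at chr7:7875954-7902495 and chr7:8906772-8931435, with 98.5% coding identity. Their promoter windows, from 250 bases before to 50 bases after the start given by RefSeq, are printed 5′ to 3′ on GRCm38.p6. They show how alike the pair is around that start, at chr7:7902413-7902712 and chr7:8931353-8931652 on the minus strand. In each printed window, here and below, the 50 bases after the start begin with atg. That start may thus be the coding start, and part of each window may be transcribed sequence rather than promoter. Capitals mark bases that differ from the other gene or have no partner in the alignment, in which 88.8% of positions were identical.
Vmn2r36: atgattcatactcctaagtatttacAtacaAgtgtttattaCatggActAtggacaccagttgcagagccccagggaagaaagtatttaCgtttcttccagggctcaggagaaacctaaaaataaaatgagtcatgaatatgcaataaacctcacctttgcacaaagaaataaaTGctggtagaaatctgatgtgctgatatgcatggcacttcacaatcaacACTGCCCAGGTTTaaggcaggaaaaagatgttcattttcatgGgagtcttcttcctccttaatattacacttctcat
Vmn2r40: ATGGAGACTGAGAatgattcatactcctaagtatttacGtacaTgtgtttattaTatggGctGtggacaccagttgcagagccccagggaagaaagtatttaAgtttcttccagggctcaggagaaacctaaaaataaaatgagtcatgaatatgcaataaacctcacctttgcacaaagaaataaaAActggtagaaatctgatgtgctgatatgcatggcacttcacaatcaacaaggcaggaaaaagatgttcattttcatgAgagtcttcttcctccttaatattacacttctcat

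In the 3-month mutant all 10 cells with at least 5 UMIs of either gene held both. The UMIs of Vmn2r36 and Vmn2r40 in these cells were 50 and 77, 36 and 43, 12 and 36, 10 and 28, 8 and 8, 8 and 2, 7 and 4, 6 and 7, 4 and 3, and 2 and 4. Vmn2r36 took 25% to 80% of the sum, with a median of 45.9%. In the P10 control the same counts were 97 and 0, 14 and 0, and 3 and 7, and in the P10 mutant 212 and 0, 83 and 0, 9 and 0, 6 and 0, and 5 and 0. So 7 of the 8 P10 cells held Vmn2r36 without Vmn2r40, and no cell of the 3-month mutant did. In the last 500 bases of the transcripts, 0% of 90-base windows of Vmn2r36 occurred in another member, whereas 96.8% of those of Vmn2r40 did, and Vmn2r40 shares 99.8% of its coding sequence with Vmn2r41. The P10 counts were made with Cell Ranger 4.0.0 and the 3-month counts with 6.0.1, and the part of this change in the difference was not tested.

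**Figure D3:**
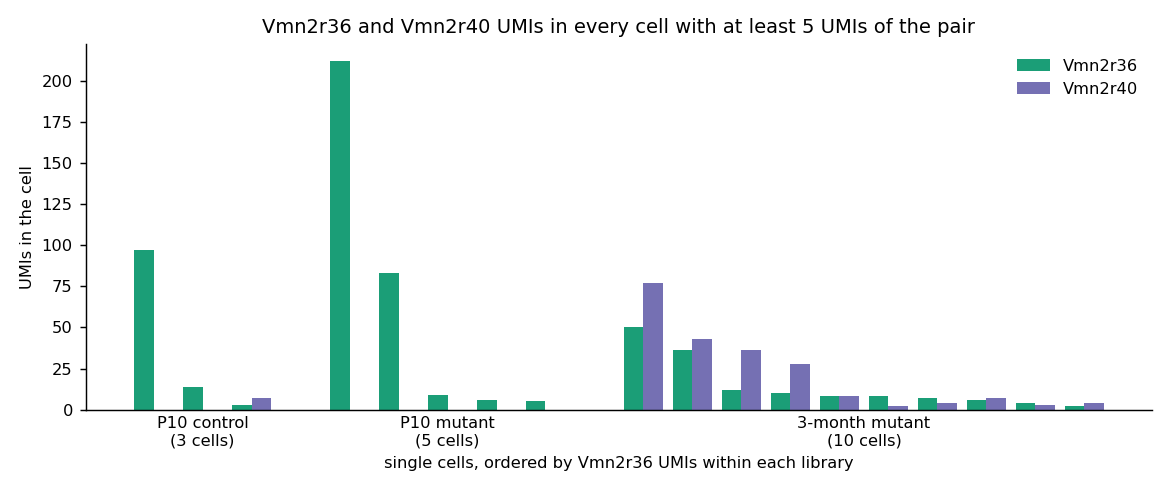
Each pair of bars is a cell with at least 5 UMIs of Vmn2r36 or Vmn2r40, with a bar for the UMIs of each gene. Cells are ordered by their Vmn2r36 UMIs within each library. The 10 cells of the 3-month mutant show both bars, while 7 of the 8 P10 cells stand at 0 for Vmn2r40.

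Vmn2r20 and Vmn2r22 formed a similar pair on chromosome 6, with 97.7% coding identity. In the 3-month mutant 5 of 10 cells held both, but with 369 UMIs of Vmn2r20 against 19 of Vmn2r22. Their promoters lie at chr6:123418012-123418311 and chr6:123650586-123650885 on the minus strand and are shown because this pair is closer still upstream, with 96.0% identity. Capitals again mark the bases that differ.
Vmn2r20: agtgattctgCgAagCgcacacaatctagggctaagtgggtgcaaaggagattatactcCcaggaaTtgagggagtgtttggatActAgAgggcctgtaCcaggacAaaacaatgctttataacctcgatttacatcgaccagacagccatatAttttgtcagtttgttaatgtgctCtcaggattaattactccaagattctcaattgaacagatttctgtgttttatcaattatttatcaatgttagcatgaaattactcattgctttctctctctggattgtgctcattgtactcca
Vmn2r22: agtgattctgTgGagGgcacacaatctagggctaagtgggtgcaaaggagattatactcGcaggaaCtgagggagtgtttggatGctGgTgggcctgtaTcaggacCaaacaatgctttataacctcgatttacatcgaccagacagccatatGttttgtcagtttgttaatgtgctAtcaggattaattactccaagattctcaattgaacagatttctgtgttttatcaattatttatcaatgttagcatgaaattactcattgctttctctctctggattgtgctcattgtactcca

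The RefSeq promoter window of Vmn2r52 is printed for comparison with Vmn2r36. Both receptors lie in the Vmn2r28 to Vmn2r52 group and were the most used of the P10 libraries. The Vmn2r52 window lies at chr7:10176237-10176536 on the minus strand. It falls wholly within the gene as annotated by GENCODE (chr7:10153206-10176573), so it need not hold the promoter. It is 81.1% identical to the window of Vmn2r36, with the differing bases in capitals.
Vmn2r52: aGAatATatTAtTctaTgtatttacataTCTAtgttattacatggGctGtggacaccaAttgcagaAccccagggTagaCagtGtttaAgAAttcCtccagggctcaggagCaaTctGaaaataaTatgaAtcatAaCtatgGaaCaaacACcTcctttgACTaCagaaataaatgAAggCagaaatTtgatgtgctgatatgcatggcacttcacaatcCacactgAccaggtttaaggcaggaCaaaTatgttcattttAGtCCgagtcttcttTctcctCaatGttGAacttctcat
The word AAGAAAGTATTT was among the commonest 12-base words of the members' promoters. It was in 21 of 111 member promoters, all of them among the 24 of the Vmn2r28 to Vmn2r52 group, and in 24 of 32851 promoters overall. The Vmn2r36 and Vmn2r40 promoters above both hold it. The AP-2 motif GCCNNNGGC, which reads the same on both strands, was in 7 of 111 member promoters (6.31%) and in 16.6% of all promoters, and the members' median GC content was 38% against 52.7% overall. It was in 6 of 72 promoters of receptors used as top (8.33%) and in 1 of 39 of those never used (2.56%). Whether the members' windows lie at the start of transcription was not tested, so these shares and the GC content need not be of true promoters.

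Outside the Vmn2r52 cells, V1R receptors were rarely found beside the members in the control and the 3-month mutant, and more often in the P10 mutant. At least 5 V1R UMIs were held by 14 of 88 control cells, all of them led by Vmn2r52, and by 0 of the remaining 74, which allows a share of up to 4.86% by the exact interval. The P10 mutant had them in 6 of 46 cells (13% [4.94, 26.3]), and the 3-month mutant in 1 of 78 (1.28% [0.0325, 6.94]). The 6 cells of the P10 mutant held 6 different pairs. Among them, Vmn2r90 stood at 12 UMIs beside 543 of Vmn1r27 and at 9 beside 31 of Vmn1r78, and Vmn2r88 stood at 105 beside 129 of Vmn1r9. The last is the barcode of 78612 UMIs named above for its Vmn2r88 and Vmn2r31, with 369 V1R UMIs in all. Total UMIs of the 6 cells were 12180 to 78612, against a median of 23533 over the 46 cells. None of the 6 was among the barcodes with the highest doublet scores. The part of doublets in them was not tested.

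The family C partner of a cell was read where at least 3 family C UMIs were present, and a cell was put on the Vmn2r1 side where Vmn2r1 had more UMIs than Vmn2r2 to Vmn2r7 together. The Vmn2r1 side held 29 of 49 control barcodes (59.2% [44.2, 73.0]), 15 of 32 P10 mutant barcodes (46.9% [29.1, 65.3]) and 23 of 73 of the 3-month mutant (31.5% [21.1, 43.4]). Among V2R-dominant cells alone it held 75% of 36, 63.6% of 22 and 35.6% of 59. The 3-month mutant lay lowest in both readings. Without the Vmn2r52 cells the control share was 61.7% [46.4, 75.5]. Among mature barcodes, those with more Omp than Gap43, the shares were 47.4% of 19 [24.5, 71.1], 29.4% of 17 [10, 56.0] and 26.7% of 45 [14.6, 41.9]. The mutants were close to each other there, and all intervals overlapped. These mature barcodes include V1R-dominant and mixed ones, so the reading is not of V2R-dominant cells alone.

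The side followed the sequence group of the top receptor in part. Over all libraries, V2R-dominant cells led by the Vmn2r91 to Vmn2r124 group, a chromosome 17 cluster, were on the Vmn2r1 side in 13 cells and on the other side in 2, with 5 and 0, 2 and 1, and 6 and 1 in the single libraries. The Vmn2r53 to Vmn2r56 group gave 7 and 1, and the Vmn2r57 to Vmn2r90 group 4 and 0. The Vmn2r8 to Vmn2r121 group, which holds Vmn2r88, gave 3 and 11, with 1 and 1 in the control library, 2 and 1 at P10 in the mutant and 0 and 9 at 3 months. The Vmn2r28 to Vmn2r52 group gave 5 and 3 in the control but 3 and 13 in the 3-month mutant, and the Vmn2r66 to Vmn2r79 group gave 3 and 8 in the 3-month mutant. So the Vmn2r91 to Vmn2r124 group had more cells on the Vmn2r1 side in each library. Its shares there were 100%, 66.7% and 85.7%, against 75%, 63.6% and 35.6% of all V2R-dominant cells with at least 3 family C UMIs. The gap was thus small in the P10 mutant and largest in the 3-month mutant. The 3-month mutant, whose share on the other side was the highest over all cells, gave 9 of the 11 cells on that side for the Vmn2r8 to Vmn2r121 group, 13 of 17 for Vmn2r28 to Vmn2r52 and 8 of 10 for Vmn2r66 to Vmn2r79.

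**Figure D4:**
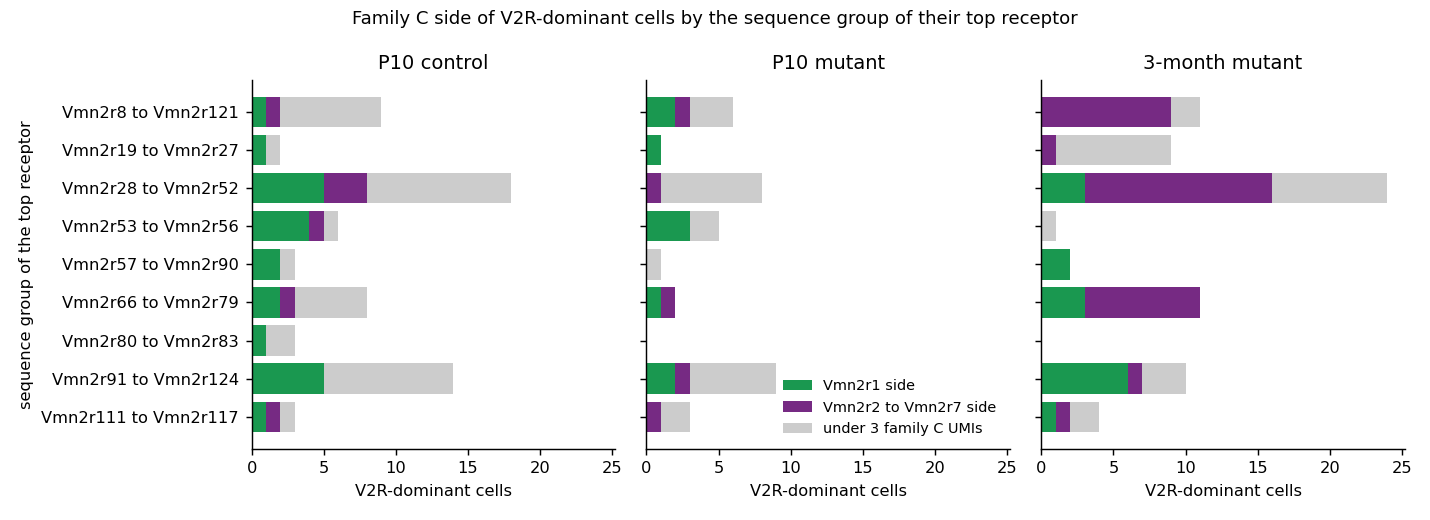
The bars give V2R-dominant cells by the sequence group of their top receptor in each library, split into the Vmn2r1 side, the Vmn2r2 to Vmn2r7 side and cells with under 3 family C UMIs. The Vmn2r28 to Vmn2r52 group shows 5 and 3 cells on the respective sides in the P10 control and 3 and 13 in the 3-month mutant.

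Of 10 receptors with at least 3 V2R-dominant cells of known side, 4 were found on 1 side only. Vmn2r73 was with Vmn2r2 to Vmn2r7 in 7 of 7 cells, Vmn2r40 in 5 of 5 and Vmn2r89 in 3 of 3, whereas Vmn2r93 was with Vmn2r1 in 3 of 3. Vmn2r36, Vmn2r44, Vmn2r53, Vmn2r78, Vmn2r88 and Vmn2r110 were found on both sides. Vmn2r53, for example, was with Vmn2r1 in 4 cells and with Vmn2r2 to Vmn2r7 in 1, which held 42 UMIs of these genes and 2 of Vmn2r1. Each of these 10 receptors rested on 3 to 7 cells. Most cells led by Vmn2r73 (6 of 9) and Vmn2r40 (6 of 7) were of the 3-month mutant. There only 35.6% of V2R-dominant cells of known side were on the Vmn2r1 side.

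The composition of the Vmn2r2 to Vmn2r7 side also differed between the libraries. Vmn2r2 had the most UMIs of the 6 genes in 9 of 9 control cells, while in the P10 mutant Vmn2r7 led in 3 of 8 cells, Vmn2r2 and Vmn2r3 in 2 each and Vmn2r6 in 1. In the 3-month mutant Vmn2r7 led in 17 of 38 cells and Vmn2r2 in 5. At least 2 of the 6 genes were present in 8 of 9, 6 of 8 and 33 of 38 cells. Cells with several family C genes were thus the rule on this side in every library.

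H2-Mv UMIs were more frequent in the cells with Vmn2r2 to Vmn2r7. On that side the 9 H2-Mv genes together stood at 483 CPM [389, 592] in the control, 935 CPM [812, 1071] in the P10 mutant and 2620 CPM [2477, 2769] at 3 months, and on the Vmn2r1 side at 77.9, 14.3 and 155 CPM. These levels are of the V2R-dominant cells, 9, 8 and 38 on the former side and 27, 14 and 21 on the latter. Any H2-Mv UMI was found in 5, 4 and 30 cells of the former and in 4, 1 and 5 of the latter, and 1 cell gave 45.7%, 45.9% and 17.2% of the UMIs on the former. V2R-dominant cells with under 3 family C UMIs stood at 3.11, 3.39 and 449 CPM. By sequence group over all libraries, at least 3 H2-Mv UMIs were found in 20 of 50 cells led by the Vmn2r28 to Vmn2r52 group, of which 18 were in the 3-month mutant, and in 12 of 26 led by the Vmn2r8 to Vmn2r121 group, of which 9 were. They were found in 1 of 33 cells led by the Vmn2r91 to Vmn2r124 group, and in none of the 12 led by Vmn2r53 to Vmn2r56 or the 12 led by Vmn2r19 to Vmn2r27.

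Of the 9 H2-Mv genes, H2-M10.3, H2-M10.4 and H2-M10.5 led on the Vmn2r2 to Vmn2r7 side of the 3-month mutant, at 424, 882 and 847 CPM and with UMIs in 24, 17 and 17 of 38 cells. H2-M10.4 had no UMI on that side in either P10 library, where H2-M10.3 was at 215 and 304 CPM and H2-M10.6 at 231 and 233 CPM. In the control 95.1% of that H2-M10.3 came from 1 cell. In the P10 mutant H2-M10.1 was at 237 CPM, all of it from 1 cell. H2-M11 had no UMI in V2R-dominant cells of either side, and H2-M1 and H2-M9 had at most 8 per side and library. B2m, the light chain of MHC class I, was at 315, 251 and 711 CPM on the Vmn2r2 to Vmn2r7 side and at 353, 232 and 604 CPM on the Vmn2r1 side. It thus differed far less between the sides than the H2-Mv genes did.

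The genes that set basal apart from apical VSNs were read on both sides as well. Gnao1 was at 530, 313 and 462 CPM on the Vmn2r2 to Vmn2r7 side and at 504, 683 and 559 CPM on the Vmn2r1 side. The axon guidance receptor Robo2 was at 179, 161 and 109 CPM and at 161, 200 and 120 CPM. Tfap2e, of which the mutants carry a transgene, was at 152, 327 and 180 CPM and at 129, 604 and 284 CPM. Nrp2 was at 42.0, 121 and 94.1 CPM and at 63.6, 71.5 and 58.2 CPM. The apical genes Gnai2 and Meis2 differed more between the sides. On the Vmn2r2 to Vmn2r7 side Gnai2 was at 31.5, 1270 and 422 CPM and Meis2 at 5.25, 376 and 121 CPM. On the Vmn2r1 side they were at 66.8, 64.3 and 84.0 CPM and at 47.7, 3.57 and 80.8 CPM. In the P10 mutant 44.0% of that Gnai2 and 53.6% of that Meis2 came from 1 cell of 8, and in the 3-month mutant 48.5% and 65.5% came from 1 of 38. V2R-dominant cells with under 3 family C UMIs held these genes as well, with Gnai2 at 400, 826 and 966 CPM and Meis2 at 132, 323 and 330 CPM. Fpr3, a formyl peptide receptor, was found in 1 cell of the Vmn2r1 side in each P10 library, with 53 and 66 UMIs, and Fpr-rs3 in 2 cells of the 3-month mutant.

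For several receptors the H2-Mv UMIs separated the 3-month cells from the P10 cells. All 10 cells led by Vmn2r36 or Vmn2r40 in the 3-month mutant held H2-Mv UMIs, from 5 to 195, and the 9 such P10 cells, which held 11533 to 66930 UMIs in all, held 0. All 6 Vmn2r73 cells of the 3-month mutant held 12 to 129, and the 3 P10 cells held 0, 1 and 0. Not every receptor followed this. The 10 Vmn2r20 cells of the 3-month mutant held none, and Vmn2r89 cells of the control held 26 and 42 and that of the P10 mutant 56. Of the 9 P10 cells led by Vmn2r36 or Vmn2r40, 8 had more Gap43 than Omp UMIs, while the 10 cells of the 3-month mutant held 720 to 25695 UMIs in all. Age, genotype, maturity and library cannot be told apart here.

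Between libraries, the largest gains in percent of cells from the P10 control to the P10 mutant were those of Vmn2r36 (3.41% to 10.9%) and Vmn2r110 (0 to 6.52%), followed by Vmn2r54 and Vmn2r56 (each 0 to 4.35%) and, tied, Vmn2r10, Vmn2r90 and Vmn2r124 (each 1.14% to 4.35%). The largest losses were those of Vmn2r52 (15.9% to 0), Vmn2r53 (5.68% to 2.17%), and Vmn2r35 and Vmn2r79 (each 3.41% to 0). Next came 8 receptors tied at 2.27% to 0, which were Vmn2r29, Vmn2r38, Vmn2r81, Vmn2r93, Vmn2r97, Vmn2r105, Vmn2r113 and Vmn2r120. From the P10 mutant to the 3-month mutant, Vmn2r20 (0 to 12.8%), Vmn2r40 (0 to 7.69%), Vmn2r73 (2.17% to 7.69%), and, tied, Vmn2r-ps159, Vmn2r44 and Vmn2r78 (each 0 to 3.85%) gained most. Vmn2r36 (10.9% to 5.13%), Vmn2r110 (6.52% to 1.28%), and, tied, Vmn2r10, Vmn2r54, Vmn2r56 and Vmn2r124 (each 4.35% to 0) lost most. Other than for Vmn2r52 and Vmn2r20, these shifts were of at most 6 cells.

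By pooled UMIs most members with enough counts passed a ratio of 2 in some direction. Of 51 members with at least 20 UMIs in the P10 libraries together, 18 were at least 2 times higher in the P10 mutant (35.3%, against a background of 5.36% of 10830 genes), and 29 were at most 0.5 times (56.9%, background 3.25%). From the P10 mutant to the 3-month mutant, 26 of 49 were higher (53.1%, background 5.56% of 10475 genes) and 17 lower (34.7%, background 7.97%). In 14 of the 18, 22 of the 29, 19 of the 26 and 14 of the 17, at least 80% of the UMIs of the higher library came from 1 cell. A ratio of pooled UMIs for a single receptor is thus mostly a statement about 1 cell.

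The question whether AP-2ε in V1R neurons comes with V2R receptor transcripts was read in V1R-dominant cells, here taken as kept barcodes with at least 5 V1R UMIs that were 80% or more of the V1R and V2R UMIs. The rule itself keeps out cells in which V2R UMIs are many. There were 354 of these in the control library, 140 at P10 in the mutant and 134 at 3 months. Tfap2e was at 7.29, 356 and 173 CPM in them. The members held 77, 53 and 21 UMIs, which is 10 CPM [8.05, 12.8], 13.2 CPM [9.89, 17.3] and 8.13 CPM [5.03, 12.4]. The ratio between the P10 libraries, mutant over control, was 1.29 [0.895, 1.86], and that of the older mutant over the younger was 0.615 [0.353, 1.04]. As a measure of free RNA, barcodes with Ptprc, an immune gene, and no Omp held 5.90 CPM [4.27, 7.95], 6.57 CPM [5.02, 8.46] and 4.95 CPM [3.92, 6.18]. The V1R-dominant level was 1.73 [1.18, 2.57], 2.01 [1.36, 2.96] and 1.64 [0.962, 2.68] times that level. At the mitochondrial limit of 10% a difference between the libraries was therefore not detectable at this depth. At a limit of 5%, which left 204 cells in the P10 libraries together, the mutant over control ratio was 3.36 [1.81, 6.36]. Without cells of at least 5 UMIs of the members, at the limit of 10%, it was 0.832 [0.518, 1.31].

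Few V1R-dominant cells held more than 2 UMIs of the members: 8 of 354, 3 of 140 and 1 of 134. The leading members in them were Vmn2r52 (16 UMIs in 4 cells), Vmn2r65 (6 in 4), Vmn2r20, Vmn2r23 and Vmn2r29 (4 each) in the control, and Vmn2r90 (21 in 2), Vmn2r124 (4 in 2), Vmn2r29 and Vmn2r57 (3 each) and Vmn2r27 (2) in the P10 mutant. In the 3-month mutant they were Vmn2r20 (4 in 1), Vmn2r-ps159, Vmn2r57 and Vmn2r78 (2 each) and Vmn2r22 (1). Apart from Vmn2r52, Vmn2r90 and Vmn2r20, none of them had more than 3 UMIs in a cell. Among the mature ones (125, 41 and 62 cells) the level was 4.99, 20.4 and 7.42 CPM, so that the P10 mutant over the control gave 4.10 [2.17, 7.98]. That ratio rested on 2 cells, both led by Vmn2r90 with 13 and 11 UMIs of the members. Mitochondrial genes took 4.58% and 4.69% of their UMIs, so both also stand in the ratio at the limit of 5%. Without cells of at least 5 UMIs the mutant held 4 UMIs in 39 cells, 3.02 CPM, with a ratio of 0.605 [0.148, 1.86]. Among immature V1R-dominant cells the level was 14.4, 8.73 and 9.30 CPM. Family C, led here by Vmn2r3 in the control (209 of 294 UMIs) and by Vmn2r7 in the mutants (91 of 164 and 121 of 245), differed from the members, with 39.0 CPM, 40.9 CPM and 94.8 CPM in V1R-dominant cells, ratios of 1.05 [0.861, 1.27] for the first pair and 2.32 [1.90, 2.85] for the second, and 0.412, 1.10 and 0.952 CPM in the immune barcodes. These ratios differed with maturity. Family C stood at 69.8, 54.7 and 130 CPM in the mature V1R-dominant cells, with ratios of 0.784 [0.596, 1.02] and 2.37 [1.82, 3.12]. There 1 cell gave 80 of 238, 25 of 75 and 44 of 227 UMIs. Without the mature cells of at least 5 UMIs of the members, family C stood at 33.95 CPM in the P10 mutant, with ratios of 0.486 [0.345, 0.671] and 3.85 [2.79, 5.43]. In the immature ones it stood at 15, 37.5 and 41.9 CPM, with ratios of 2.50 [1.74, 3.64] and 1.12 [0.493, 2.22], and 1 cell gave 30 of 48, 52 of 86 and 9 of 9 UMIs there.

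**Figure D5:**
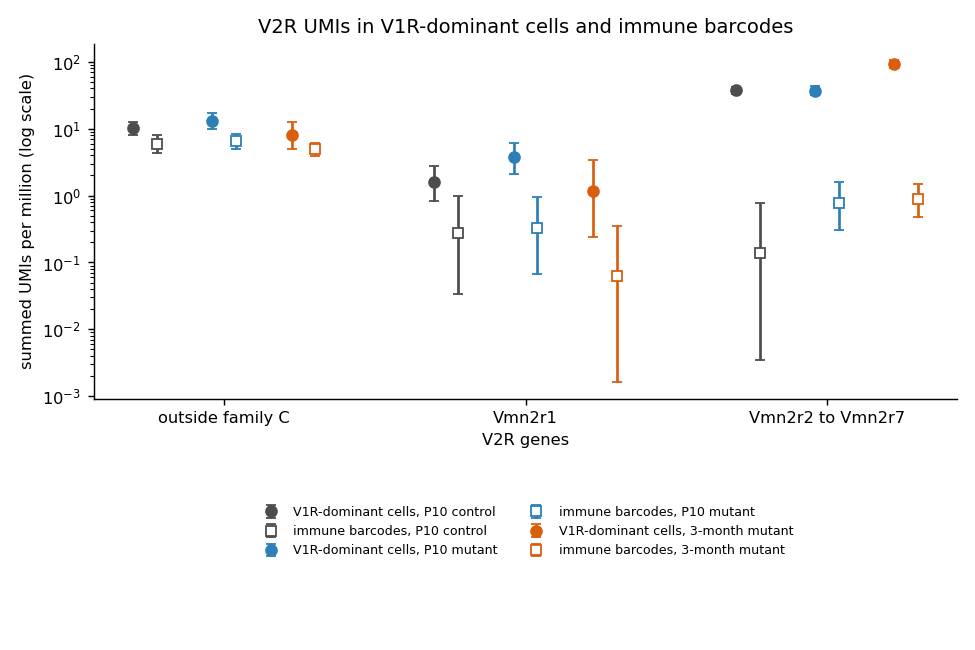
The level in CPM on a log axis is shown for the V2R genes outside family C, for Vmn2r1 and for Vmn2r2 to Vmn2r7. It is given in V1R-dominant cells and in immune barcodes of each library, with exact 95% intervals for counting error. The genes outside family C stand at 8.13 to 13.2 CPM in V1R-dominant cells and at 4.95 to 6.57 CPM in immune barcodes. Vmn2r1 stands at 1.16 to 3.74 CPM against at most 0.329 CPM, and Vmn2r2 to Vmn2r7 at 37.1 to 93.6 CPM against at most 0.889 CPM.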

How the data were processed

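The values deposited by the authors are whole UMI counts per gene and barcode, not normalised, and per the file headers the authors made them with Cell Ranger 4.0.0 (P10 libraries) and 6.0.1 (3-month library), on mm10 per the labels. The submitters' processing notes also name bcl2fastq and Seurat 3.2.3. No column was left unmapped to a sample. From these counts, barcodes with 200 to 9000 genes and at most 10% mitochondrial UMIs were kept and shares, pooled CPM and exact Poisson, Clopper-Pearson and conditional binomial 95% intervals were computed in Python 3.11.15 with NumPy 2.4.6, SciPy 1.17.1 and pandas 2.3.3. Medians have order-statistic intervals. Total UMIs were 83870584, 80760046 and 70074800.

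Coding sequences and coordinates came from GENCODE for GRCm38. Coding sequences were aligned with edlib, and identity was taken over the longer sequence of a pair. Promoters came from RefSeq, in which 110 members matched, and were aligned with Biopython 1.88. Scrublet in Scanpy 1.11.5 called 0, 0 and 1 barcodes, so it had not worked, and an alternative left out the 538, 629 and 848 highest scores. Free RNA was not corrected. The scripts were tested on simulated data.

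The members and gene lists were chosen with earlier results of these data known. Named genes were the 20 receptors top in most cells, the 5 largest gains and losses per comparison, the 5 receptors with most UMIs in V1R-dominant cells, the family C and H2-Mv genes and fixed marker genes. Other receptors were named after their values had been seen.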

Additional observations from a re-analysis of the deposited data

Results flagged for a closer look

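V2R transcripts were also present in barcodes outside the comparisons, those over the limit of 10% mitochondrial UMIs. At least 5 Vmn2r UMIs were found in 24 of 3329 such control barcodes (0.721% [0.462, 1.07]), 29 of 4859 P10 mutant barcodes (0.597% [0.400, 0.856]) and 22 of 2162 barcodes of the 3-month mutant (1.02% [0.639, 1.54]). Of these, 18, 27 and 19 were V2R-dominant. In those with at least 5 UMIs outside family C, the top receptor held at least 80% in 86.4% of 22, 100% of 25 and 94.7% of 19.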

How the results depend on the processing

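Of 126 alternative values, 112 moved by less than the counting interval, or by under 1.5 times for counts, and 14 moved further. At a mitochondrial limit of 5% the P10 mutant used 20 receptors as top. The members' level in V1R-dominant cells was then 6.10, 20.5 and 14.2 CPM, with a mutant over control ratio of 3.36 [1.81, 6.36] over 204 cells. These include the 2 mutant cells led by Vmn2r90, with 13 and 11 UMIs of the members, on which the ratio among mature cells also rested. With the immune level subtracted, at the limit of 10%, the members' levels were 4.30, 6.63 and 3.17 CPM. The mean over cells gave 15.1 CPM in the control. Leaving out V1R-dominant cells with at least 5 UMIs of the members, chosen after seeing the data, gave 7.31 CPM in the P10 mutant and turned the ratio from 1.29 to 0.832 [0.518, 1.31], an interval that holds 1 as the first one does. The remaining shifts were the control's 75% on the Vmn2r1 side among V2R-dominant cells, its 30.7 receptors in draws of 46 cells, and the 100% of 3-month cells with 1 dominant group when receptors of 97% identity were counted together, a choice also made after seeing the data, as was leaving out the Vmn2r52 cells. The cause of these shifts was not tested beyond what each setting removes. No paired analysis was possible because each group has 1 library. Depth limits the reading of cells under 2000 UMIs, most of them in the 3-month mutant, and of any receptor carried by 1 cell.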
